A study of Mus musculus with 2 samples.

Results

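Fast 2A fibers are muscle fibers whose thick filaments are built mainly from myosin heavy chain 2A, the product of Myh2. In the mouse flexor digitorum brevis (FDB), a small fast muscle of the foot, they were taken here as the cells with more counts of Myh2 than of Myh1, Myh4, Myh7 or Myh8. Of 763 sequenced cells, 171 had more than 5000 genes detected and under 20% of counts from mitochondrial genes, and 51 of the 171 met this rule (29.8%, exact Clopper-Pearson 95% limits 23.1 to 37.3). The fibers were thus chosen by their counts of the 5 Myh genes, and their levels of these genes are given as a description. All 51 were labelled as whole myofibers, 27 of 88 kept cells on sequencing lane 1 and 24 of 83 on lane 2. The main comparison group was the 117 Myh1-dominant fibers, the fast 2X class, with 59 fibers on lane 1 and 58 on lane 2. Unlike the 51, this group included cells not labelled as whole myofibers. The remaining kept cells were 2 Myh7-dominant fibers and 1 Myh4-dominant fiber. The labels give a single untreated C57BL/6J mouse over 3 months of age, whereas the study's methods name adult male mice of the C57BL/6J and DBA2 backgrounds without saying which gave these cells. The labels were followed here, by which cells, plates and lanes are not biological replicates, and differences are given with counting limits and lane values but without a test.

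A fiber's contraction speed follows the myosin heavy chain it carries, and Myh7 (slow, type 1), Myh2 (2A), Myh1 (2X) and Myh4 (2B) form a series from slow to fast. Troponin, tropomyosin, light chains and calcium-handling proteins also exist as slow and fast forms, encoded by separate genes. Fast 2A fibers are known to combine fast myosin with a high content of mitochondria and with resistance to fatigue.

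Stretches before the starts of 5 genes are shown because these genes carry much of the difference described below. Tnnt1, Tnni1 and Tnnc1 encode the slow forms of troponin T, I and C, and Myl3 encodes the slow essential myosin light chain. Mybpc2, the fast form of myosin-binding protein C, lay on the other side of the comparison. The sequences are 200 bases each, 5′ to 3′ on the gene's strand, taken from RefSeq with build GRCm38.p6 at chr7:4516005-4516204 (minus strand) for Tnnt1, chr1:135799202-135799401 (plus) for Tnni1, chr14:31208112-31208311 (plus) for Tnnc1, chr9:110763446-110763645 (plus) for Myl3 and chr7:44524670-44524869 (minus) for Mybpc2. None of them overlapped an annotated exon, and they end 29, 19, 0, 32 and 0 bases before the RefSeq start. Capitals mark an E-box (CANNTG, the motif of myogenic bHLH factors) or an MCAT element (GGAATG, the motif of TEAD factors, on either strand).
Tnnt1 promoter: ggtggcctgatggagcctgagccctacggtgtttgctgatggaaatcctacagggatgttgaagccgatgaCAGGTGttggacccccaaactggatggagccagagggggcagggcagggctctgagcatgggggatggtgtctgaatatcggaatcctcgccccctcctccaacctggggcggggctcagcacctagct
Tnni1 promoter: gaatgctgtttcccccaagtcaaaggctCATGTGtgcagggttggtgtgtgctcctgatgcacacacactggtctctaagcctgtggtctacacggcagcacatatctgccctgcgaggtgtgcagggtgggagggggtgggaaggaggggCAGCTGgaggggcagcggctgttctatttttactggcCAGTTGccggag
Tnnc1 promoter: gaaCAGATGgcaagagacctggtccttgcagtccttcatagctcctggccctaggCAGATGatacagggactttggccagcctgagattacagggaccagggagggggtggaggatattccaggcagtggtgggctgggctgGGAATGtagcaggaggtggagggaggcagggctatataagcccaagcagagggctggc
Myl3 promoter: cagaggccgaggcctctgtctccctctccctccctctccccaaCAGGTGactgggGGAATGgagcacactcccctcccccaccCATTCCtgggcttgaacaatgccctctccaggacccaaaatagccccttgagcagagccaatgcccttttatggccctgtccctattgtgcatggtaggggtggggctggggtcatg
Mybpc2 promoter: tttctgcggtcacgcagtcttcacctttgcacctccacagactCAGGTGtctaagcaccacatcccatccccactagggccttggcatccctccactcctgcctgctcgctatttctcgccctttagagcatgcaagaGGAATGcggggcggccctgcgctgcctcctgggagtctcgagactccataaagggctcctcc
Each of the 5 stretches held at least 1 E-box, with 3 in Tnni1 and 2 in Tnnc1. An MCAT element was found in those of Tnnc1, Myl3 and Mybpc2, with 2 in Myl3. The MEF2 motif (CTA and TAG with 4 bases between them) was found in none of them. Over 32851 promoter stretches of the same length, 58.2% held an E-box, 10.1% an MCAT element and 2.49% the MEF2 motif, on either strand. The motifs did not separate the slow genes from Mybpc2.

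In none of the fast 2A fibers did the Myh counts come from Myh2 alone. The study surmised some ambient RNA in its cells. Whether part of the counts of the other Myh genes came from outside the fiber was not tested. The Myh2 share of the counts of the 5 Myh genes ranged from 45.3% to 85.6% with a median of 68.9%, and Myh1 followed at a median of 23.9% (6.19% to 44.6%). Myh1 reached at least 20% in 33 of the 51 fibers, at least 30% in 12 and at least 40% in 5. Myh4, the 2B myosin, made up a median of 3.50% and at most 6.82%. Its share rose with that of Myh2 over the 51 fibers (Spearman's rho 0.62). Whether reads were split between the Myh genes was not tested, so the Myh4 counts are not taken as 2B myosin of these fibers. Myh8, the perinatal myosin, had a median of 1.04%, and Myh7 had 1.02% but ranged from 0% to 43.2%. In the Myh1-dominant fibers the medians were 71.8% for Myh1, 20.8% for Myh2, 1.16% for Myh4, 5.35% for Myh8 and 0.295% for Myh7. These values describe the rule. The smallest leads inside the class were 2.05 percentage points, in the fiber with 45.3% Myh2 and 43.2% Myh7, and 4.89 points over Myh1. The nearest fibers outside it had Myh2 behind Myh1 by 0.883 and 2.45 points.

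**Figure D1:**
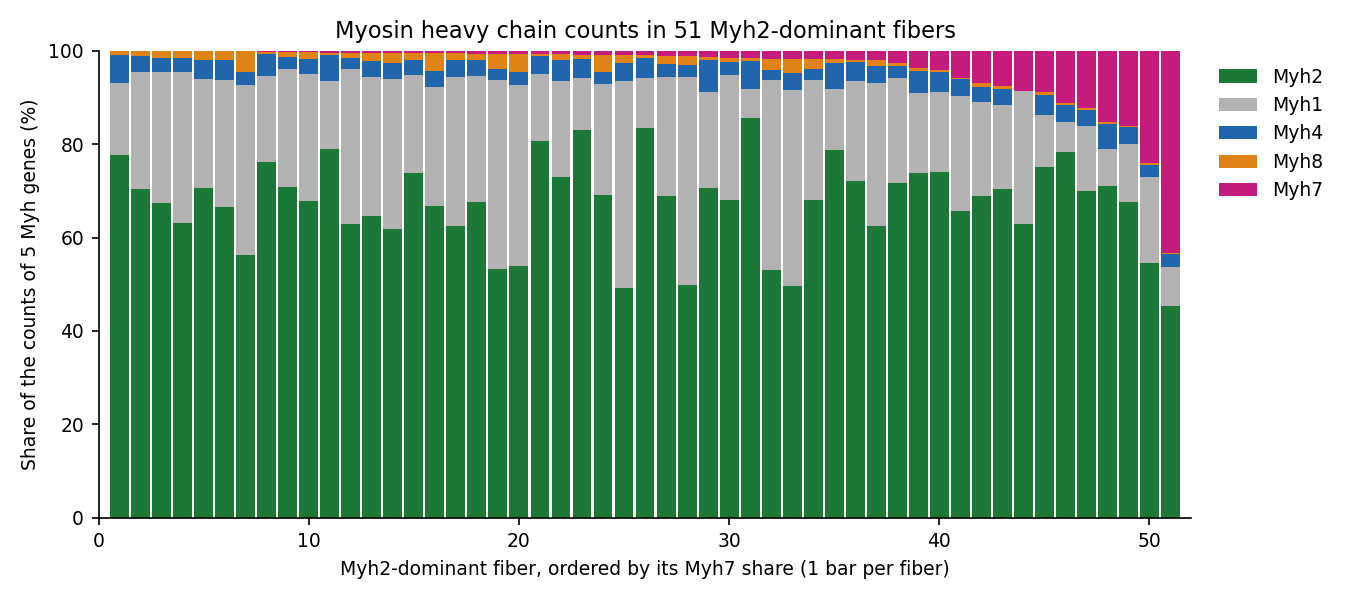
Share of the counts of 5 Myh genes (%, 0 to 100) in each of the 51 Myh2-dominant fibers, 1 bar per fiber, ordered by Myh7 share. Myh2 (green) runs from 45.3% to 85.6%, and Myh1 (grey) has counts in every fiber. Myh7 (magenta) is above 5% only in the last 11 bars and reaches 43.2% in the last.

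The fast 2A fibers had a median of 206510 counts (54160 to 616396) and 11477 genes, compared with 255726 counts (28827 to 1543000) and 12367 genes in Myh1-dominant fibers. Mitochondrial genes gave a median of 6.96% and 5.01% of counts, respectively. The share of kept cells that were Myh2-dominant ranged from 11.8% to 62.5% between the 8 plates. Plate here means the cells that share an index value in the deposited data, with each value taken as a plate. No library barcode was shared between the lanes. In 1 fast 2A fiber, with 54160 counts, only 116 counts came from the 5 Myh genes, and the next lowest fiber had 644. It is referred to below as the low-Myh fiber. When every kept cell was thinned to 28825 counts, 51 of the 51 fibers stayed Myh2-dominant.

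Slow troponin and light chain genes were among those with the highest ratios between the fast 2A and the Myh1-dominant fibers. Levels below are counts per 1000000 counts of a cell or group (CPM), and ratios are between summed counts of the 51 Myh2-dominant (11907400 counts) and the 117 Myh1-dominant fibers (39180010 counts). Of 8646 genes that reached 500 counts over both classes, the genes of the rule left aside, 67 (0.775%) were at least 2-fold higher in the fast 2A fibers and 150 (1.73%) at least 2-fold lower. The direction was the same in both lanes for 215 of these 217 genes, beside 5370 of all 8646 genes. It held in each of 7 plates with at least 3 fibers of each class for 58 of the 67 higher and 119 of the 150 lower genes. These genes were called on sums over the same lanes and plates, which favours such agreement. With a trimmed-mean scaling (a log2 factor of −0.11), the split was 93 higher and 100 lower. With only cells labelled as whole myofibers in both classes, 68 of 8594 genes were higher and 144 lower. The median log2 ratio over all 8646 genes was −0.09, and 5454 of them (63.1%) were below 0, a share against which the counts of the lists are to be read.

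Among the troponins, Tnnt1 had the highest ratio of all 8646 genes. Its level per fiber ran from 539 to 8315 CPM with a median of 2348 CPM in the fast 2A fibers, and from 0 to 1264 CPM with a median of 230.5 CPM in Myh1-dominant fibers. It was above the highest Myh1-dominant fiber in 43 of 51 fibers and above their median in all 51. The summed levels of 2908 and 254 CPM gave a log2 ratio of 3.51 (exact conditional binomial 95% limits 3.48 to 3.55), with 3.28 on lane 1 and 3.73 on lane 2. Limits here and below cover counting error only. Tnni1 had a narrower range, from 406 to 3409 CPM (median 1591) against 72.3 to 1179 CPM (median 383), with 39 of 51 fibers above the highest Myh1-dominant fiber. Tnnc1, whose product also serves the heart, ran from 537 to 9272 CPM (median 1614) against 76.2 to 1557 CPM (median 391), with 26 fibers above. Their log2 ratios were 2.15 and 2.48. In all 51 fibers Tnni1 and Tnnc1 exceeded the median of the Myh1-dominant class, although the classes overlapped.

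The slow light chains and tropomyosin were far more uneven. Myl2, the slow regulatory light chain, ran from 0 to 4739.6 CPM with a median of 343 CPM, against 0 to 441 CPM with a median of 78.2 CPM in Myh1-dominant fibers, and 21 fibers lay above the highest of those. For Myl3 the median was 119 CPM (10.0 to 2258) against 39.7 CPM (0 to 347), and 13 fibers lay above. Tpm3, the slow tropomyosin, reached 3517 CPM in 1 fiber, which held 34.0% of all its counts in the class, and only 5 fibers lay above the Myh1-dominant range. The log2 ratios were 3.15 for Myl2, 2.90 for Myl3 and 2.54 for Tpm3. Myh6, the alpha-cardiac heavy chain beside Myh7 on chromosome 14, had a log2 ratio of 3.13, but 45.9% of its counts came from 1 fiber. Myh6 and Myh7 are near-identical in long stretches, and Tpm3 has processed copies, so reads of these genes could have been split. With the 11 fibers of highest Myh7 share left out, the log2 ratios of Myh6 and Tpm3 were 0.28 and 0.29.

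**Figure D2:**
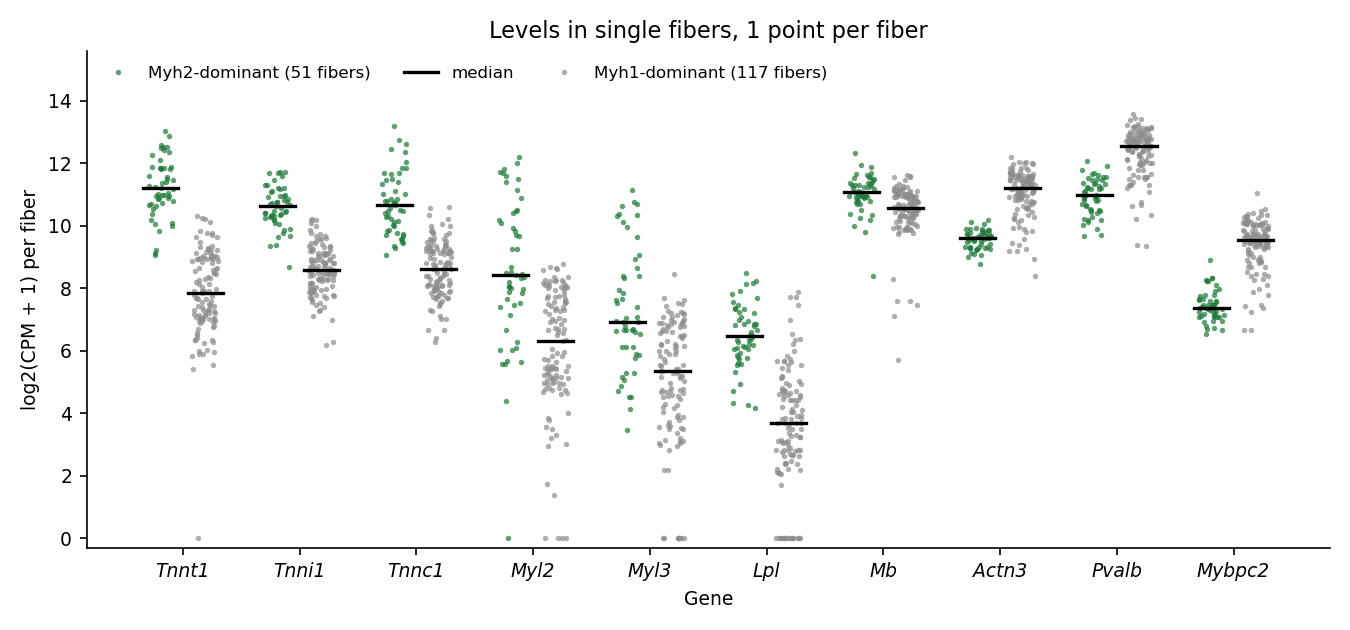
Level of 10 genes in each fiber as log2(CPM + 1), with 1 point per fiber, 51 Myh2-dominant (green) and 117 Myh1-dominant fibers (grey), and a black line at each class median. Tnnt1, Tnni1 and Tnnc1 are shifted up in nearly the whole class, Myl2 and Myl3 spread over a wide range, and Actn3, Pvalb and Mybpc2 are shifted down.

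Over the 16 genes of a slow sarcomere list with at least 500 counts, 10 were at least 2-fold higher and the median log2 ratio was 1.84. Beside those above, the list held Ankrd2 (1.97), a stretch-responsive ankyrin repeat protein, Myl6b (1.71), Myoz2 (1.51), a Z-disc protein that binds calcineurin, Csrp3 (0.83), Actn2 (0.74) and Myom3 (0.45), an M-band protein. The exceptions were Mybpc1, slow myosin-binding protein C, with 4289 and 4447 CPM (log2 ratio −0.05), and Smpx with 579 and 606 CPM (−0.07). Myh3, the embryonic myosin, was at 77.0 CPM against 15.5 CPM (2.32), while Myh8, a gene of the rule, was at 158 against 833 CPM. The Myh8 level is only a description, since the rule used this gene and its share followed that of Myh1 (Spearman's rho 0.74 over the 51 fibers).

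Fast sarcomere genes were lower, but most of them only slightly. All 14 such genes of the fast list had a log2 ratio below 0 with a median of −0.40, and 4 were at least 2-fold lower. These were Myom2, the M-band protein of fast fibers (10.8 against 59.4 CPM, log2 ratio −2.46), Mybpc2 (183 against 802 CPM, −2.13), Actn3 (737 against 2457 CPM, −1.74) and the kinase Mylk4 (143 against 374 CPM, −1.38). Actn3, the fast alpha-actinin, ran from 441 to 1165 CPM with a median of 781 CPM, against 335 to 4692 CPM with a median of 2342 CPM. No fast 2A fiber reached the Myh1-dominant median of Actn3, Mybpc2 or Myom2. The main fast troponin, tropomyosin and light chain genes differed far less, with log2 ratios of −0.14 for Tpm1, −0.18 for Tnnt3, −0.20 for Tnni2, −0.30 for Mylpf and −0.51 for Myl1. Counts of both the slow and the fast troponin T were found in all 51 fibers. Tnnt3 ran from 3065 to 14681 CPM with a median of 10986 CPM, against a median of 12198 CPM. With the trimmed-mean scaling the fast sarcomere median stayed below 0, at −0.29.

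By the ratio over all genes, the other highest were Lpl (98.7 against 15.2 CPM, log2 ratio 2.70), the lipase that releases fatty acids from circulating fat, Sbk3 (2.70), Fndc5 (2.28), the precursor of the hormone irisin, Car2 (2.27), a carbonic anhydrase, Togaram2 (2.24) and Homer2 (2.05), a scaffold protein. Lpl and Homer2 exceeded the Myh1-dominant median in all 51 fibers. Lpl ran from 17.2 to 361 CPM with a median of 87.9 CPM, against 0 to 235 CPM with a median of 11.8 CPM. Among the lowest were the transcription factor Maf (22.3 against 97.9 CPM, −2.13), the phosphatase gene Dupd1 (−2.08), the potassium channel gene Kcnh7 (−2.04), Odf3l2 (−1.94), Mss51 (477 against 1817 CPM, −1.93), a muscle gene tied to mitochondria, and Atp1b2 (31.7 against 120.0 CPM, −1.92), a sodium pump subunit. For Mss51 the highest fast 2A fiber, at 1016 CPM, lay below the Myh1-dominant median of 1771 CPM. The lowest ratio, −3.25, was that of Gm44646, a transcript on the opposite strand over the end of Mybpc2, and rested on 26 counts in the fast 2A fibers. The counting is described as zUMIs with default settings and no strand setting is named, so the reads of this pair are taken as uncertain. Col9a1 (−2.08), Cdkn1c (−1.95), Ucp1 (−1.97), Amd2 (−1.91) and the predicted genes Gm38048 (−2.34) and Gm5524 (−2.06) were likewise low, the first 3 on 41, 41 and 48 counts.

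**Figure D3:**
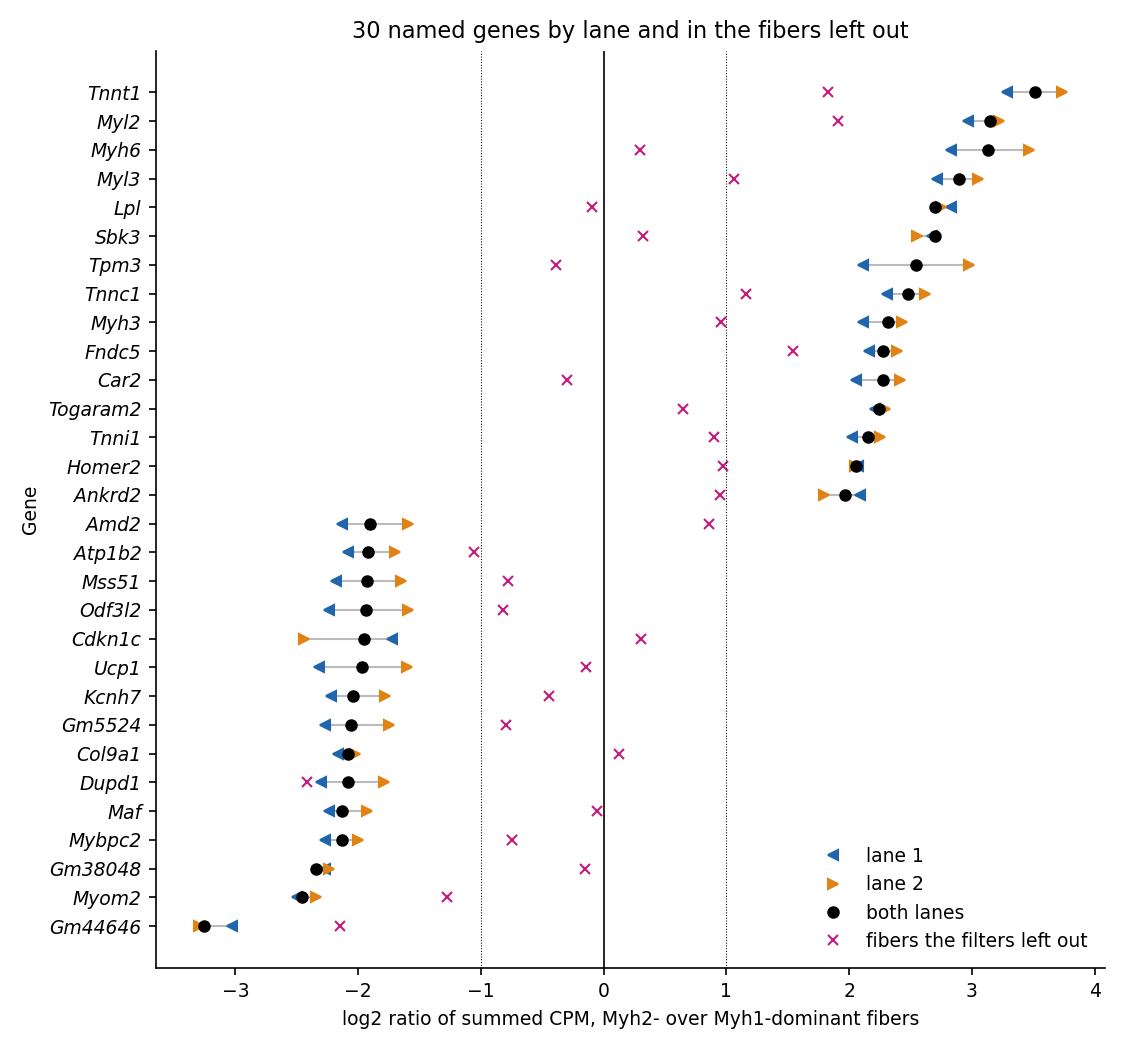
Log2 ratio of summed CPM, Myh2- over Myh1-dominant fibers, for the 15 highest and 15 lowest genes, on lane 1, lane 2 and both, and in the fibers that the filters left out (crosses, totals without mitochondrial genes). Dotted lines mark 2-fold. Lane values lie on the same side for all 30 genes because the genes were selected for this. The crosses lie nearer 0 for each of them but Dupd1.

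Calcium-handling genes were mostly lower, with 18 of 22 genes below 0, beside 63.1% of all genes, and a median log2 ratio of −0.23. Pvalb, the calcium buffer parvalbumin, was at 809 to 4267 CPM with a median of 2021 CPM, against 659 to 12110.3 CPM with a median of 6016 CPM, and its log2 ratio was −1.61 (limits −1.62 to −1.59). No fast 2A fiber reached the Myh1-dominant median of Pvalb, of the calcium store protein Casq1 (−0.83) or of triadin, Trdn (−0.52). The fast calcium pump Atp2a1 was lower (1998 against 3301 CPM, −0.72), and the slow pump Atp2a2 was higher (46.3 against 20.1 CPM, 1.20), as was Casq2 (0.96). Itpr1, an inositol trisphosphate receptor, was also lower (−1.19). The core of the release machinery differed little, with −0.10 for Ryr1 and −0.05 for Cacna1s.

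Genes for oxidative metabolism were mostly higher, those of the respiratory chain by small steps and a few others past 2-fold. The median log2 ratio was 0.30 for 81 nuclear genes of the respiratory chain, of which 79 were above 0 and none reached 2-fold, and 0.31 for 9 mitochondrial-encoded protein genes. The latter median turned to −0.08 when CPM was averaged over cells or cells were thinned. Fatty acid use had a median of 0.44 with 23 of 24 genes above 0, led by Lpl, the fatty acid transporter Cd36 (63.0 against 26.1 CPM, 1.27), Fabp3 (0.97), Acadm (0.91) and Acaa2 (0.88). Ucp3 was the exception, at −0.66. Of 17 citric acid cycle genes 16 were above 0 with a median of 0.30, and Idh2 stood out at 99.3 against 44.5 CPM (1.16), whereas Idh3a was lower (−0.26). The malate-aspartate shuttle and ketone genes had a median of 0.55, with 0.89 for Got1, 0.73 for Got2 and 0.74 for Oxct1. Bdh1, a ketone body enzyme with fewer than 500 counts, was at 22.7 against 3.57 CPM. The oxygen genes had a median of 0.21, and myoglobin, Mb, ran from 332 to 5123 CPM with a median of 2144 CPM, against 50.8 to 3171 CPM with a median of 1534 CPM (0.52).

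Glycolytic and glycogen genes were lower as a group, although isoforms went apart. Of 26 genes 21 were below 0, beside 63.1% of all genes, with a median of −0.34. The 3 genes at least 2-fold lower were Gpd1 (40.7 against 102 CPM, −1.33) and the phosphorylase kinase subunits Phka1 (−1.12) and Phkb (−1.07). Ldha, the muscle form of lactate dehydrogenase, was at 835 against 1339.7 CPM (−0.68), and Ldhb, the heart form, at 356 against 104 CPM (1.78). Ldhb ran from 55.4 to 824 CPM with a median of 355 CPM, and 50 of 51 fibers exceeded the Myh1-dominant median of 102 CPM. The monocarboxylate transporters split in the same manner, with −0.67 for Slc16a3 and 0.38 for Slc16a1. Gys1, glycogen synthase, was higher (0.66) and Pygm, glycogen phosphorylase, lower (−0.52).

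In the energy phosphate list, with a median of −0.25, the creatine kinases also split by compartment. Ckmt2, the mitochondrial form, was at 422 against 152 CPM (1.47), with 50 of 51 fibers above the Myh1-dominant median, and Ckm, the cytosolic form, at 3022 against 4552 CPM (−0.59). The AMP deaminase genes were also apart, with 1.96 for Ampd3 and −0.99 for Ampd1, the muscle form. Prkag3, an AMPK subunit of glycolytic muscle, was lower (48.8 against 121 CPM, −1.32).

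Of the regulators of oxidative genes, all 13 had a log2 ratio above 0, beside 36.9% of all genes, with a median of 0.41. Counting limits lay above 0 for 9 of the 13, and 9 kept their sign on both lanes. The highest were Perm1 (125 against 56.6 CPM, 1.14), Esrrb (0.99), Coq8a (0.91) and Esrrg (0.83). Ppargc1a, the coactivator PGC-1alpha, was at 76.3 and 75.1 CPM (0.02), with opposite signs on lane 1 (0.30) and lane 2 (−0.46). The 27 fiber type regulators had a median of −0.09, equal to that of all genes, which became 0.03 with the trimmed-mean scaling. Within them, Rcan2 (1.28) and Rcan1 (0.87), inhibitors and targets of calcineurin, were higher. Maf, Myod1 (24.4 against 46.7 CPM, −0.94), Camk2a (−0.76), Sox6 (−0.57) and Tbx15 (−0.46), the last 2 known as factors of fast fibers, were lower. Prox1, a factor of slow fibers, was at 6.80 and 5.46 CPM and differed in sign between the lanes.

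Membrane and structural genes held further isoform pairs. The ion transport list had a median of 0.20. Fxyd6, a regulator of the sodium pump, was at 351 against 102 CPM (1.78), the pump subunit Atp1b1 was higher (0.84) and Atp1b2 lower (−1.92). Kcnma1, a calcium-gated potassium channel, was at 576 against 299.8 CPM (0.94), and the chloride channel Clcn1 was lower (−0.63). For the 25 linker and cytoskeleton genes the median was 0.06, with Pdlim1 (1.51), the small heat shock proteins Hspb7 (1.00) and Hspb6 (0.95), Xirp2 (0.68) and Fhl1 (0.61) higher and Synm, an intermediate filament protein, lower (−0.64). Genes of the neuromuscular junction had a median of −0.19, with 10 of 11 below 0 beside 63.1% of all genes. Counting limits lay below 0 for 6 of the 11, and 9 kept their sign on both lanes. Among them Chrne, the adult acetylcholine receptor subunit, was at −0.84. The study found neuronal and junction-related genes raised in a subset of its fast fibers, and proposes a technical cause tied to ambient RNA. That subset was of the fast 2X class, and its part in the values of this list was not tested. Stress and early response genes had a median of −0.25, which was −0.09 with plates as a block, and cytosolic ribosomal protein genes 0.00. Under the trimmed-mean scaling the ribosomal median was 0.11.

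**Figure D4:**
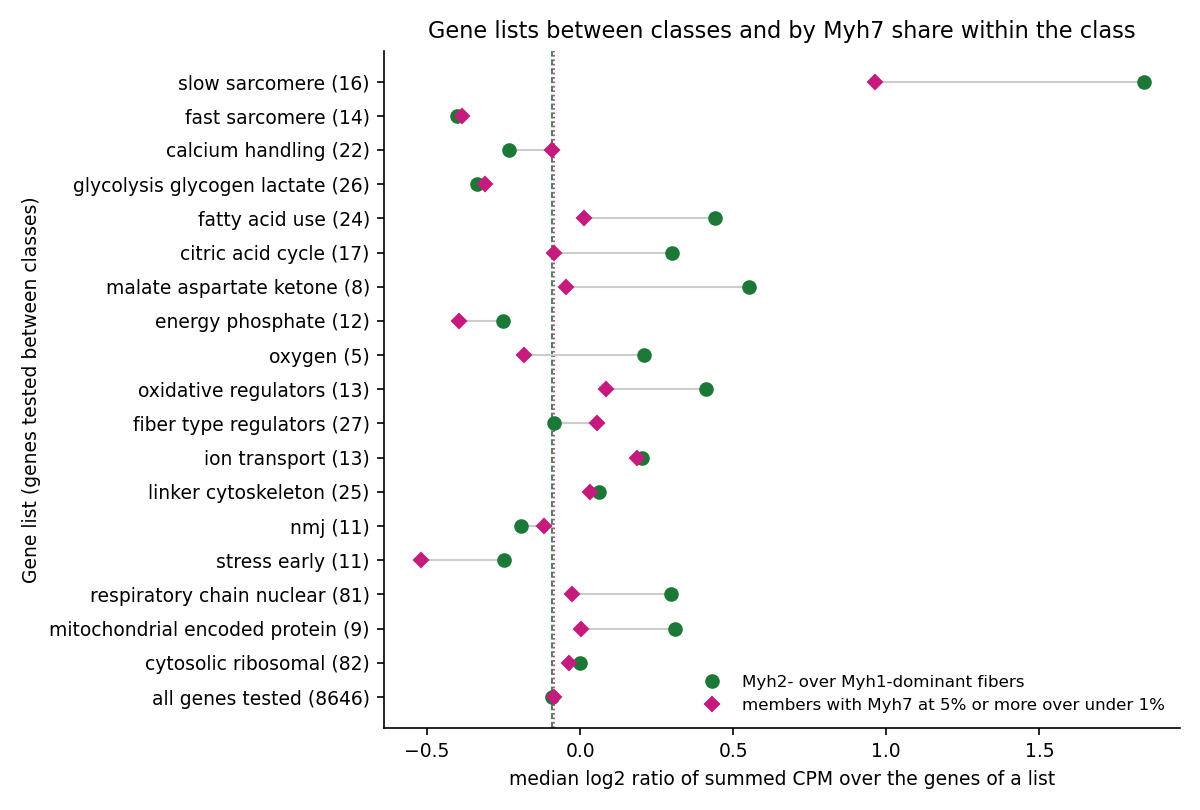
Median log2 ratio of summed CPM over the genes of 18 gene lists and over all genes, for Myh2- over Myh1-dominant fibers (green circles) and for fast 2A fibers with Myh7 at 5% or more over those under 1% (magenta diamonds). Dashed and dotted lines mark the medians of all genes, −0.09 and −0.08. Slow sarcomere genes lie to the right in both comparisons, and respiratory chain, fatty acid and citric acid cycle genes only in the first.

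Markers of other cell types overlapped between the classes and were low in most fibers. The summed level of 10 endothelial genes was a median of 148 CPM per fast 2A fiber (0 to 1052) against 151 CPM (14.3 to 2699), and that of 9 fibroblast genes 58.6 CPM (9.17 to 3656) against 64.1 CPM (0 to 6803). Smooth muscle and pericyte genes were at 253 CPM (84.0 to 812) against 291 CPM (29.9 to 11423), Schwann cell and axon genes at 39.4 CPM (0 to 609) against 34.4 CPM (0 to 4561), and satellite cell genes at 112 CPM (24.0 to 312) against 104 CPM (0 to 307). Immune genes were at 13.0 CPM (0 to 572) against 17.0 CPM (0 to 520), and erythroid genes at 3.24 CPM (0 to 239) against 5.39 CPM (0 to 787). Over the summed counts the log2 ratio was −1.32 for the erythroid, −0.32 for the smooth muscle, −0.21 for the immune, −0.20 for the endothelial, −0.19 for the Schwann cell, −0.05 for the fibroblast and 0.03 for the satellite cell list. The highest fast 2A value of the endothelial, fibroblast, smooth muscle, Schwann cell and immune lists was each time that of the low-Myh fiber. Without it the highest values were 368, 683, 515, 166 and 83.7 CPM, and the log2 ratios were −0.23, −0.28, −0.33, −0.27 and −0.40. These ratios are one-sided, since Myh1-dominant fibers with low Myh levels were kept. Of the defining markers, only the axonal Nefh was at 0 in all 51 fibers, while Pecam1 had 298 counts, Pax7 101 and Ptprc 41. The part of other cells in the results was not tested.

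Fibers that carried more Myh2 without being dominated by it lay between the classes. Among the Myh1-dominant fibers, 37 had Myh2 at 30% or more of Myh1 and Myh2 together, and 48 had under 20%. The level of the 37 hybrids lay between those of the 48 and of the fast 2A fibers for 64 of the 67 higher genes (95.5%) and 137 of the 150 lower genes (91.3%), and for all 30 genes with the highest and lowest ratios. Over all 8646 genes, 14.2% were ordered in this way upward and 24.3% downward. The hybrids are among the 117 fibers on which the 67 and 150 genes were selected. Tnni1 was at 281 CPM in the 48 fibers, 572 CPM in the hybrids and 1697 CPM in the fast 2A fibers, and Actn3 at 2760.2, 1349.9 and 737 CPM. The step differed between genes. Lpl (9.92, 28.5 and 98.7 CPM) was split almost evenly on the log2 scale, with 1.52 from the 48 fibers to the hybrids and 1.79 from the hybrids to the fast 2A fibers. For Tnnt1 (197, 353 and 2908 CPM) these differences were 0.84 and 3.04, and for Myl2 0.22 and 3.14. The transcripts of Odf3l2 (144, 35.8 and 30.3 CPM) differed mainly on the first step, with −2.01 and −0.24. The hybrids had a lower median depth (120365 counts) than the 48 fibers (330043) and a higher mitochondrial share (8.17% against 4.31%), whose part in this order was not tested.

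The fibers that the filters had removed gave a measure in cells the rule did not use. With at least 100 counts of the Myh genes, 22 of them were Myh2-dominant and 133 Myh1-dominant, with median mitochondrial shares of 36.4% and 53.2%. On totals without mitochondrial genes, an alternative chosen after seeing the data, 24 of the 30 named genes had the same direction as in the kept fibers, as did 48 of the 67 higher genes and 116 of the 150 lower genes, while 48.8% of all 8646 genes were above 0. On raw totals these counts were 23, 60 and 87, with 69.3% of all genes above 0. The gene and list values that follow are on totals without mitochondrial genes unless stated. Tnnt1 (log2 ratio 1.83), Myl2 (1.91), Fndc5 (1.54), Tnnc1 (1.16) and Myl3 (1.06) were still at least 2-fold higher. Lpl (−0.09), Tpm3 (−0.38) and Car2 (−0.30) were not higher. On raw totals these 3 were at 0.22, −0.07 and 0.02, so the sign of Lpl and Car2 depended on the scaling. Below 0 were Dupd1 (−2.42), Gm44646 (−2.15), Myom2 (−1.28), Atp1b2 (−1.05) and Mybpc2 (−0.75), and above 0 were Amd2 (0.86), Cdkn1c (0.31) and Col9a1 (0.13). The slow sarcomere median was 0.67 and that of the respiratory chain 0.34, beside −0.01 for all genes. Cytosolic ribosomal protein genes, at 0.00 in the kept fibers, were at 0.29 here. Fatty acid use was at 0.10 and the citric acid cycle at 0.001. The mitochondrial-encoded protein genes were at −0.59, opposite in sign to the kept fibers.

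The Myh7 share varied widely among the fast 2A fibers. A share of at least 5% was found in 11 of 51 fibers (21.6%, limits 11.3 to 35.3), of at least 10% in 6 and of at least 20% in 2, with 15 fibers between 1% and 5% and 25 under 1%. The 11 fibers had a median Myh7 share of 11.2%, and depth and mitochondrial share were close to those of the 25 fibers (medians of 206510 and 212548 counts, 7.04% and 5.96%). Myh1 had a median share of 13.9% in the 11 and 27.1% in the 25 fibers, while Myh2 was at 68.9% and 67.6%. Thus Myh7 was higher where Myh1 was lower, at about the same share of Myh2. Over the 51 fibers Spearman's rho between shares, which sum to 100% and share each fiber's depth, was −0.78 for Myh2 with Myh1, −0.42 for Myh1 with Myh7 and 0.01 for Myh2 with Myh7.

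Of 5072 genes with at least 200 counts in the 11 and 25 fibers, 55 (1.08%) were at least 2-fold higher with Myh7 at 5% or more and 108 (2.13%) at least 2-fold lower. The Myh7 share chose the sets, and other genes were not used. Of the 55, 33 were still past 2-fold without their highest fiber. The genes that were also at least 2-fold higher in the whole class numbered 27 of the 55, and 27 of the 67. Both comparisons contain the same 11 fibers.

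The slow light chains were among the genes that followed Myh7 most closely. Myl3 ran from 111 to 2258 CPM with a median of 1303 CPM in the 11 fibers and from 10.0 to 334 CPM with a median of 58.3 CPM in the 25, with 9 of 11 above the highest of the 25. Myl2 ran from 369 to 4739.6 CPM (median 3072) against 0 to 975 CPM (median 168), with 10 of 11 above. In order of Myh7 share (under 1%, 1% to 5%, at least 5%) the summed levels were 63.4, 229 and 1240.4 CPM for Myl3 and 203, 670.1 and 2997 CPM for Myl2, and in the 2 Myh7-dominant fibers they were 2330.3 and 3704 CPM. The log2 ratios of the outer sets were 4.29 (limits 4.14 to 4.44) and 3.88 (3.80 to 3.97). The lowest of the 11 for both genes was the low-Myh fiber, whose Myh7 share rested on 10 counts.

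The ratios of Tnnt1 and Tnnc1 by Myh7 share were smaller. Tnnt1 was at 1762, 2480 and 5914 CPM in the 3 sets (log2 ratio 1.75) and at 8227 CPM in the Myh7-dominant fibers, and its lowest set was still above the 254 CPM of Myh1-dominant fibers. For Tnnc1 the levels were 1245, 1953 and 4662 CPM (1.90), and 8270.1 CPM in the Myh7-dominant fibers. Tnni1 moved less, at 1377, 1512 and 2604 CPM (0.92), and none of the 11 fibers exceeded the highest of the 25. Tpm3 was at 45.0, 119.8 and 1180.3 CPM (4.71), with 6689 CPM in the Myh7-dominant fibers, and Myh6 at 11.8, 21.7 and 415 CPM (5.13), with 40.5% and 51.3% of the counts of the 11 fibers in a single fiber. Without that fiber their log2 ratios were 4.18 and 4.31. The fibers with under 1% Myh7 thus had Tpm3 and Myh6 at the level of Myh1-dominant fibers (56.4 and 12.4 CPM), while their Tnnt1 was higher than in those.

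**Figure D5:**
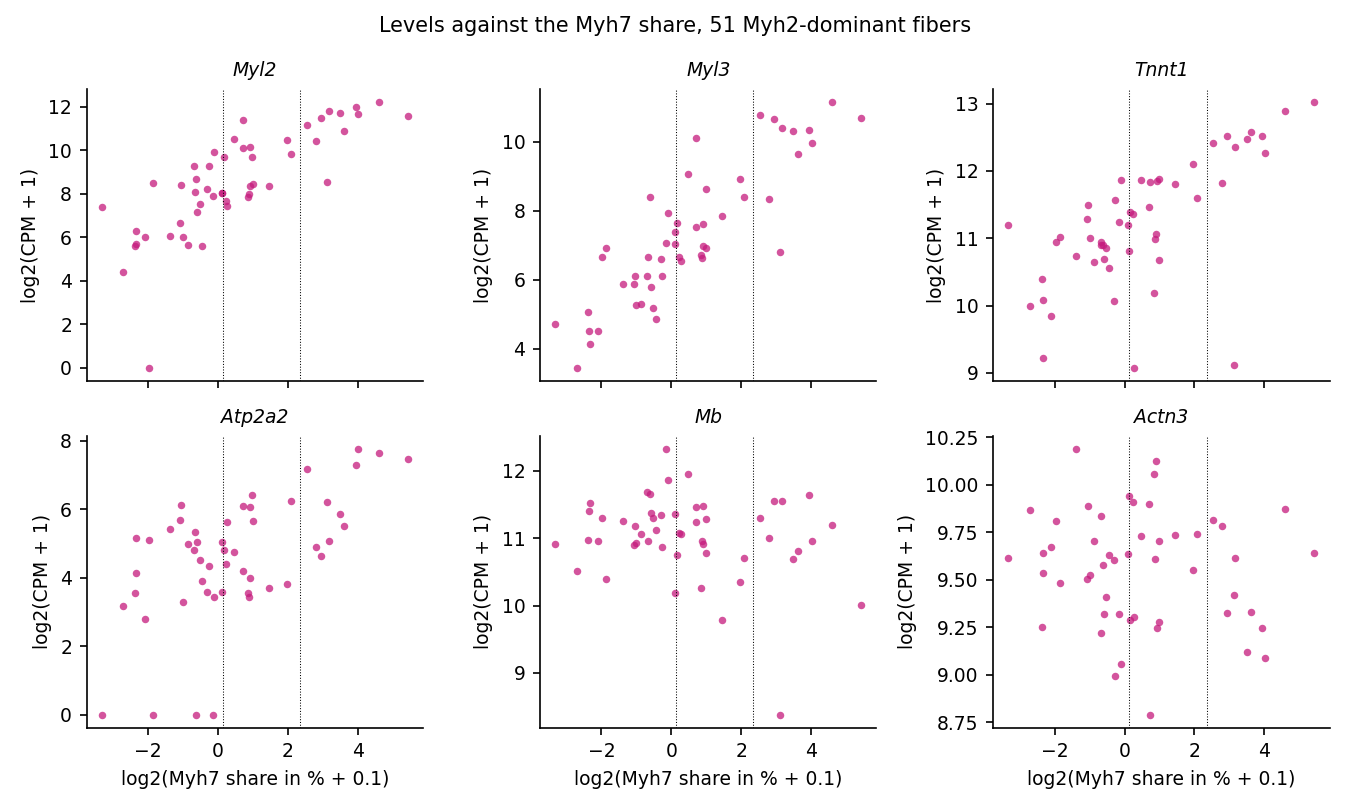
Level of 6 genes as log2(CPM + 1) against the Myh7 share of each of the 51 Myh2-dominant fibers as log2(% + 0.1), 1 point per fiber, with dotted lines at 1% and 5%. Myl2, Myl3 and Tnnt1 climb along the axis, apart from the low-Myh fiber at 8.62%, Atp2a2 climbs less evenly, and Mb and Actn3 show no slope.

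Outside the sarcomere, Rspo3, a secreted activator of Wnt signalling, was at 3.88 and 64.1 CPM (4.04), Bdh1 at 9.71 and 63.0 CPM (2.70), Atp2a2 at 21.0 and 112 CPM (2.41), Myh3 at 40.6 and 189 CPM (2.22), Sbk3 at 17.5 and 76.7 CPM (2.13) and Ankrd2 at 254 and 1094 CPM (2.10). Not all of these continued to the Myh7-dominant fibers. Atp2a2 reached 799 CPM there, whereas Ankrd2 was at 499 CPM and Bdh1 at 5.18 CPM, near the 3.57 CPM of Myh1-dominant fibers. The Myh7-dominant fibers had 478806 and 100629 counts, so their sums follow mainly the first, and the Bdh1 level rests on very few counts. Among the lowest were S100a8 (17.3 against 94.7 CPM, −2.45), an S100 protein best known from neutrophils, Asb4 (−1.87), Cdon (14.0 against 50.5 CPM, −1.85), a receptor of myogenic differentiation, and Mylk4 (58.3 against 189 CPM, −1.69). All 11 fibers lay below the median of the 25 for S100a8, Cdon and Mylk4.

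By Myh7 share the slow sarcomere list had 15 of 15 genes above 0 with a median of 0.96, and the fast list 12 of 13 below 0 with a median of −0.38. Glycolysis was lower in 22 of 26 genes (median −0.31), with Ldha at 488 against 979.6 CPM (−1.01) and Aldoa at −0.66, and the fast pump Atp2a1 was at −0.69. The oxidative lists, however, had medians near that of all genes. These were −0.03 for the respiratory chain, 0.01 for fatty acid use, −0.08 for the citric acid cycle, −0.05 for the malate-aspartate shuttle, 0.09 for oxidative regulators and −0.18 for the oxygen genes, beside −0.08 for all 5072 genes. Mb was at 2209 CPM under 1% Myh7 and 1946 CPM at 5% or more (−0.18). Actn3 (−0.10) and Mybpc2 (−0.21), among the genes that most separated the classes, also differed little by Myh7 share. Stress and early response genes were below 0 in 10 of 10 (median −0.52), and energy phosphate genes in 9 of 12 (−0.40), beside 59.9% of all genes.

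Across the 51 fibers the same order appeared as rank correlations, given as a description. With the Myh7 share, Spearman's rho was 0.85 for Myl3, 0.82 for Myl2 and Tpm3, 0.70 for Tnnc1, 0.68 for Tnnt1 and 0.52 for Tnni1, and −0.60 for Mylk4, −0.59 for Rragd and −0.57 for Ldha. The 5th to 95th percentiles over 1522 genes with a mean of at least 20 counts per fiber were −0.32 and 0.27. With the Myh2 share, rho was 0.44 for Tnnt1 and 0.40 for Eef1a2, and −0.53 for Pvalb, −0.51 for Mss51 and −0.49 for Mybpc2. Levels of Tnnt1 went with those of Myl2 and Myl3 (0.82 each), Tnnc1 (0.79) and Tnni1 (0.73), but not with Mb (0.02) or Actn3 (−0.13). The Myh7 share had a rho of −0.03 with total counts and 0.14 with the mitochondrial share.

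The spread among fibers was measured as the coefficient of variation (CV, SD over mean) of CPM after subtraction of counting noise, for 5230 genes with a mean of at least 5 counts per fiber. Its median was 0.59 in the fast 2A fibers and 0.65 in Myh1-dominant fibers, and 430 genes had a CV of 1 or more, or 318 of 5265 without the low-Myh fiber. Fast sarcomere genes were among the most even, with a median CV of 0.26 and none at 1 or more. Actn3 had a CV of 0.18 against 0.40 in Myh1-dominant fibers, and Tpm1 and Tnnt3 had 0.18 and 0.19. Calcium-handling genes had a median of 0.30, respiratory chain genes 0.33 and ribosomal protein genes 0.36. The slow sarcomere list was at 0.62, with 5 of 15 genes at 1 or more. Myl3 had a CV of 1.41 (0.91 in Myh1-dominant fibers) and Myl2 1.28 (0.89), while Tnnt1 had 0.62 (0.81) and Tnni1 0.43. The largest values were 3.85 for Dcn and 3.50 for Gsn, both also fibroblast genes, 3.00 for Iqgap2, 2.94 for Myh6 and 2.39 for Celsr1 and Chst11. For Dcn, Gsn, Iqgap2, Celsr1 and Chst11, and for 8 of the 10 genes with the largest CV, the highest fiber was the low-Myh fiber, with 997 CPM of Dcn from 54 counts against at most 155 CPM in the others. Without it the CV was 1.09 for Gsn and 0.90 for Celsr1, and the largest values were 2.91 for Myh6, 2.24 for Tpm3 and 2.04 for Coa7.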

How the data were processed

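The authors mapped mcSCRB-seq reads (a plate method that reads the 3′ end of each transcript with unique molecular identifiers, UMIs) to mm10/GRCm38 with Ensembl annotation and spike-in sequences, using zUMIs with STAR 2.5.4b and featureCounts. Per the labels, Cell Ranger 3.1.0 was also used. The deposited table held raw UMI counts of 35163 genes and 10 descriptive rows for 763 cells on 2 lanes. The descriptive row named index was used to divide the cells into 8 plates, each index value being taken as a plate. Repeated gene names (4 rows) were left out of the gene comparisons. No separate step removed spike-in rows. Filters followed the study's methods, more than 5000 genes and under 20% mitochondrial counts.

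The cells were divided by the largest of the 5 Myh genes. Counts were summed per class and scaled to CPM. Genes with at least 500 counts (200 between Myh7 sets) were called at 2-fold, with exact conditional binomial 95% limits, which cover counting error only. By the labels all cells share 1 mouse, so no p-value was computed. The named genes are the 15 highest and 15 lowest ratios with the same direction in both lanes and in the median over cells, the 10 most variable genes, the 10 highest and lowest rank correlations with Myh2 and Myh7 share, the 10 highest and lowest ratios between Myh7 sets, and any gene of the 26 gene lists. The members and lists were chosen with earlier results of these data known. Coordinates came from GENCODE M21. Myom1, Cpt1b, Cox4i1, Xirp1, Nefl and Cdh15 were not analysed here. No doublet caller was run, and free RNA was not estimated. Well barcodes are reused between plates (96 of 96), and full barcodes are not. The ratio and spread computations were tested on simulated data. Python 3.11.15, numpy 2.4.6, pandas 2.3.3 and scipy 1.17.1 were used. Alternatives covered the filters, Myh genes compared, scaling (trimmed mean of M-values, implemented for this work), averaging, thinning, count minimum, Myh7 threshold, plates as a block, and leaving out lanes, plates or fibers.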

Additional observations from a re-analysis of the deposited data

How the results depend on the processing

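The 30 named genes were extremes chosen for the same direction in both lanes and in the median over cells. Settings with 1 lane or with that median could therefore not reverse them. Of 716 values of these genes over the alternatives, 716 kept their direction and 714 stayed past 2-fold. The exceptions, Myh6 and Tpm3, were at log2 ratios of 0.28 and 0.29 without the fibers of highest Myh7 share. Of 525 list medians, 495 stayed on the same side of the median of all genes. The number of genes at least 2-fold lower (150) was 294 with the median over cells, 360 with thinned cells, and 100 with the trimmed-mean scaling, where 93 were higher. A minimum of 100 counts gave 189 higher and 700 lower, and no minimum 2330 and 3421. With a Myh7 threshold of 10%, 6 fibers and 205 lower genes remained in place of 11 and 108, and the median over cells gave 116 higher and 174 lower genes between the Myh7 sets. The count of lists at least as variable as all genes was 7 of 16 with thinned cells against 3 of 18. With mt-Rnr1 and mt-Rnr2 left out of the mitochondrial share, 65 fibers were Myh2-dominant. Leaving out a lane or a plate gave 24 to 49 fibers, 49 to 73 higher and 79 to 158 lower genes, 11 to 13 of 21 lists above the median of all genes, and 3 to 4 lists in the spread. Leaving out a lane gave 4 to 7 Myh7-rich fibers, 30 to 51 higher and 60 to 97 lower genes between the Myh7 sets. The lowest count, 79 lower genes, came from lane 1 alone. The member with few Myh counts, left out after seeing the data, made 68 higher and 156 lower genes, and 51 and 117 between the Myh7 sets. The cause of these moves was not tested, apart from fewer fibers or counts where a setting removes them. With plates as a block (a Mantel-Haenszel ratio over plates, chosen after seeing the data), 67 genes were higher and 134 lower. Depth limits genes with few counts, whose ratios have wide counting limits.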

Other observations

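Genes of the lists that differed in opposite directions on the 2 lanes, beyond their counting limits, numbered 20. Among the fibroblast genes, Col3a1, a collagen of connective tissue, had a log2 ratio of Myh2- to Myh1-dominant fibers of 0.65 on lane 1 and −2.09 on lane 2, Col1a2 had 0.75 and −1.19, Dcn 0.73 and −0.97, and Gsn 0.29 and −0.45. The fiber with only 116 Myh counts lay on lane 1 and held 13.6% of the Col3a1, 10.2% of the Col1a2, 21.2% of the Dcn and 18.8% of the Gsn counts of the class. Without it the lane 1 values were 0.42, 0.54, 0.29 and −0.21, so that Gsn no longer differed in direction. The endothelial genes Pecam1 (0.59 and −0.41) and Tek (0.58 and −0.33) and the pericyte gene Rgs5 (0.69 and −1.43) were of the same kind, with lane 1 values of 0.43, 0.58 and 0.27 without that fiber. Genes expressed by the fiber itself were among them with smaller values, such as Ppargc1a (0.30 and −0.46), Nrf1 (−0.28 and 0.42), Hk2 (0.06 and −0.23) and Dnajb1 (0.16 and −0.56).

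Between the Myh7 sets, the 2 fibroblast genes compared, Dcn and Gsn, both lay above 0 in the fibers with Myh7 at 5% or more, with a median log2 ratio of 0.93, and the 2 endothelial genes had a median of 0.56. These values rested in part on the same fiber, without which Dcn was at −0.53, Gsn at 0.21, and the medians were −0.16 and 0.42.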
